A study of Mus musculus with 13 samples.

Results

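The comparison set 4 mice homozygous for the P195A substitution in Adar (P195A/P195A) against 3 wild-type mice, 7 of the 13 whole-brain libraries of the series, which were chosen by genotype label alone. All were C57BL/6 mice. The P195A/P195A animals were 3 females and 1 male of 42, 42, 48 and 48 days. The wild-type animals were 2 females and 1 male of 48, 48 and 74 days. Weights at weaning were 6.4, 8.4, 7.3 and 8.0 g in P195A/P195A and 9.0, 10.5 and 10.3 g in wild type. In the same order, age at weaning was 20, 20, 19 and 19 days in P195A/P195A and 19, 19 and 24 days in wild type. The male was replicate 2 of P195A/P195A and replicate 3 of wild type. A whole brain mixes many cell types, so fewer cells of a type and less RNA per cell cannot be told apart. RNA of the whole organ was read in 2 ways: as gene counts, and as the share of G at listed editing sites. Each library is 1 labelled sample, so p-values measure only the spread between these samples. The other 6 libraries, of P195A/+ and P195A/- mice, entered only the estimate of spread of the expression fit.

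Adar encodes ADAR1, an enzyme that acts on double-stranded RNA and turns adenosines there into inosines. Inosine is read as G, so an edited site shows G where the genome has A. ADAR1 is made in a short nuclear form and in a long, interferon-inducible form that carries the Z-alpha domain, which binds RNA and DNA in the left-handed Z conformation, and P195A lies in that domain. Editing by ADAR1 marks cellular double-stranded RNA as self, and without it the sensor MDA5 (Ifih1) can start an interferon response. ADAR2, encoded by Adarb1, is the second active editing enzyme and edits several ion channel and receptor transcripts of neurons, the best known being the glutamine-to-arginine site of Gria2. The product of Adarb2 has no known editing activity.

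The mutated codon is shown first because it defines the genotype. In the longest annotated coding transcript, Adar-203 with 1178 codons (GENCODE M21, GRCm38), the codon lies on the + strand of chromosome 3 at 89735396 to 89735398. The wild-type reference around it (chr3:89735384-89735410) reads as follows, with the proline codon that P195A changes in capitals. Genotype was taken from the labels.
Adar codons: agggggaaacctCCTttgtggagcctt

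Of the sites that passed, 9 in exons are shown as 21 bases of the transcript strand, from GENCODE M21 transcripts, with the edited A in capitals at base 11 counted from the 5′ end. The first 8 lie in 3′ UTRs and the last, in Grik2, is a silent coding site.
Cds2, chromosome 2, 132309633, + strand: tacagtgcttAatatgtgcca
Cds2, chromosome 2, 132309880, + strand: gtaagcatttAgcaaggtgcc
Kif3c, chromosome 12, 3404616, + strand: ttcagtggttAatagtacttg
Kif3c, chromosome 12, 3404167, + strand: catgaatgcaAaggccagagg
Gnl3l, chromosome X, 150984618, - strand: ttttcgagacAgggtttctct
Tbc1d24, chromosome 17, 24178353, - strand: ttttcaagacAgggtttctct
Arf3, chromosome 15, 98737112, - strand: atagcctcgaActcagaaatc
Ap2a2, chromosome 7, 141632474, + strand: ctggagcactAggtgtggtca
Grik2, chromosome 10, 49244347, - strand: tctggtttggAgttggagctc

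Library totals were 13539148 to 20688387 gene counts in P195A/P195A and 17891377 to 22399005 in wild type. Replicates 2 and 3 of P195A/P195A stood apart from the other libraries, at 61.1 and -51.4 on a first principal component that held 33.8% of the variance of the 7 libraries, where the other 5 lay between -17.3 and 19.7. The same animals were at the ends for the share of A plus G reads of tested sites that fell at intron sites, a ribosomal RNA locus left out. The share was 62.0% and 43.5% in them, against 54.9% and 53.2% in P195A/P195A replicates 1 and 4 and 47.1 to 50.6% in wild type. The part of these differences in the results was not tested. Without both animals 11 genes and 11 editing sites passed, in place of the 10 genes and 24 sites given here.

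Adar RNA rose in P195A/P195A brains. It stood at 345.6, 282.4, 340.3 and 322.5 CPM (CPM being counts scaled to library size) in P195A/P195A, against 186.7, 164.8 and 188.8 CPM in wild type. The groups did not overlap, and the log2 fold change was 0.84 (SE 0.0775; adjusted p = 5.91e-05, edgeR quasi-likelihood test with Benjamini-Hochberg adjustment over 19962 genes). In the same fit 0.0451% of genes rose and 0.00501% fell at an adjusted p under 0.05, 9 genes and 1 gene, or 0.0501% in either direction. At an unadjusted p under 0.05 there were 590 higher and 586 lower genes, 2.96% and 2.94%. The count of 10 genes became 5 without wild-type replicate 1 and 6 without wild-type replicate 3. Adarb1 averaged 303.8 ± 25.3 CPM in P195A/P195A and 305.5 ± 19.9 CPM in wild type (SD, n = 4 and 3), a log2 fold change of -0.01 (SE 0.0839) with overlapping groups and a sign that turned in 6 alternative fits. Adarb2 had 60.7, 74.1, 45.5 and 53.1 CPM in P195A/P195A and 47.6, 42.0 and 42.2 CPM in wild type, where the groups overlapped and the difference of 0.41 (SE 0.139; adjusted p = 0.8294, edgeR) did not pass.

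The other 8 genes that rose are neighbours of Adar on chromosome 3, all within the 386 kb from the start of Adar (89715022) to the end of Tpm3 (90100902). Nearest to Adar, Chrnb2, a nicotinic acetylcholine receptor subunit gene on the opposite strand whose span overlaps the end of Adar, had 150.7, 104.1, 166.0 and 143.9 CPM in P195A/P195A and 87.7, 84.2 and 86.9 CPM in wild type (log2 fold change 0.71; adjusted p = 0.0495, edgeR). Ube2q1, a ubiquitin-conjugating enzyme gene, had 114.3, 83.6, 134.8 and 132.3 CPM in P195A/P195A and 55.7, 58.2 and 60.2 CPM in wild type (1.00; SE 0.125). Atp8b2, a phospholipid-transporting ATPase gene, had 224.9, 224.6, 228.3 and 241.7 CPM in P195A/P195A and 117.9, 107.7 and 121.4 CPM in wild type (0.99; SE 0.0774; adjusted p = 1.62e-05, edgeR). These 3 had no overlap between the groups.

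Of the others, Ubap2l, an RNA-binding protein gene, had 205.2, 183.4, 155.0 and 193.7 CPM in P195A/P195A and 93.9, 94.2 and 92.2 CPM in wild type (log2 fold change 0.98; SE 0.0927). Tpm3, a tropomyosin gene, had 130.7, 78.4, 121.6 and 116.6 CPM in P195A/P195A and 52.1, 61.5 and 57.5 CPM in wild type (0.97; SE 0.134). Il6ra, the interleukin 6 receptor gene, was the lowest of them in level, at 15.9, 11.6, 19.6 and 17.6 CPM in P195A/P195A and 8.31, 7.83 and 8.09 CPM in wild type (1.01; SE 0.172; adjusted p = 0.0495, edgeR). The unnamed genes 4632404H12Rik (0.84) and 4933434E20Rik (0.77) also passed. Chrnb2 and Il6ra, nearest to the threshold, no longer passed without any 1 of 6 libraries (all but P195A/P195A replicate 2). The call of 4933434E20Rik was lost without P195A/P195A replicate 1 or 4 or any wild-type replicate, that of Tpm3 without wild-type replicate 1 or 3, and that of 4632404H12Rik without wild-type replicate 1. With the 7 libraries alone, Adar, Atp8b2 and Ubap2l still passed and the other 6 did not. Replicate 2 of P195A/P195A was the lowest of its group in 8 of these 9 genes, Adar included, and still lay above all wild-type libraries.

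**Figure D1:**
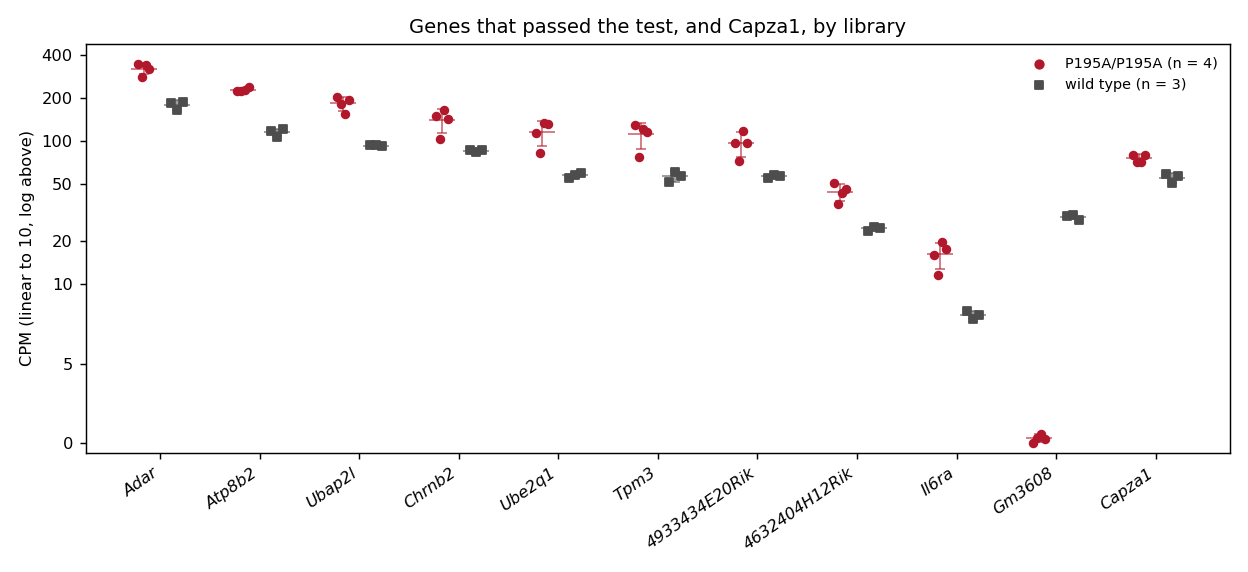
CPM per library of the 10 genes that passed and of Capza1, with P195A/P195A in red left of wild type in grey, lines and bars being the mean and SD (linear axis to 10 CPM, logarithmic above). The 9 genes from Adar to Il6ra are higher in each P195A/P195A library than in each wild-type library, and Gm3608 is near 0 in P195A/P195A.

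All 11 genes of at least 1 CPM in this interval were higher in the 4 P195A/P195A libraries than in the 3 wild-type libraries, as were 2.69% of all genes. She, a signalling adaptor gene, at 0.89 (SE 0.163; adjusted p = 0.0931, edgeR), and Hax1, an anti-apoptotic mitochondrial protein gene, at 0.83 (SE 0.155; adjusted p = 0.107, edgeR), were the 2 that did not pass. The interval is one drawn from its own values, so its count is a description. Of the 94 genes of at least 1 CPM within 3 Mb outside it, 0 passed (edgeR). An unadjusted p under 0.05 was found in 4 of the 94, beside 5.89% of all genes. Their median log2 fold change was 0.02, against 0.89 inside. Closest to the outer side of the interval, Nup210l, a nuclear pore protein gene that starts next to the end of Tpm3, had 0.58 (SE 0.41; adjusted p = 0.851, edgeR) at about 1 CPM. Rps27, a ribosomal protein gene, had 1.56, 1.75, 2.16 and 3.72 CPM in P195A/P195A and 0.34, 1.00 and 0.59 CPM in wild type (1.83; SE 0.449; adjusted p = 0.694, edgeR). Cks1b, a cell cycle kinase subunit gene below 1 CPM, had 1.15 (SE 0.501) and also did not pass. The fold changes of Jtb (-0.02), Slc39a1 (-0.05), Kcnn3 (-0.06), Pmvk (-0.09), Flad1 (-0.18), Pbxip1 (-0.22), Shc1 (-0.34) and Rab13 (0.29) did not pass either.

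**Figure D2:**
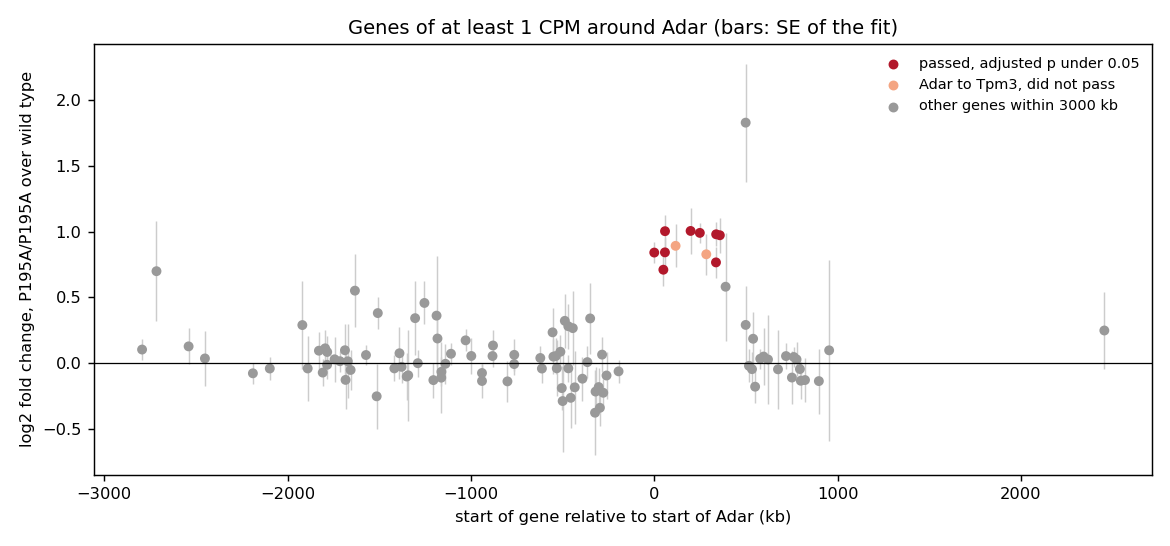
Log2 fold change of P195A/P195A over wild type, with the SE of the fit, for genes of at least 1 CPM within 3000 kb of the start of Adar. The 11 genes from Adar to Tpm3 lie between 0.71 and 1.01 and the 94 others have a median of 0.02.

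Gm3608, annotated as a pseudogene on chromosome 1 (105455971 to 105458829), was the gene that fell. It had 0, 5, 12 and 5 counts in P195A/P195A and 534, 584 and 628 counts in wild type, and scaled by library it was 91.2-fold lower (95% exact counting interval 60.01 to 146, which covers counting error only; adjusted p = 5.60e-05, edgeR). Among females alone Gm3608 expression did not pass (log2 fold change -6.58; adjusted p = 0.0549, edgeR). Its transcript is 99.5% identical over 2859 bases to that of Capza1, an actin capping protein gene on chromosome 3 (104822779 to 104864505), so reads can be assigned to either. Capza1 itself had 79.9, 71.9, 72.2 and 80.8 CPM in P195A/P195A and 59.0, 50.9 and 57.1 CPM in wild type (log2 fold change 0.45; SE 0.0871; adjusted p = 0.137, edgeR). Summed over both, the level was 79.9, 72.2, 72.8 and 81.1 CPM in P195A/P195A and 89.0, 81.7 and 85.5 CPM in wild type, a difference of -8.87 CPM (exact two-sided permutation p = 0.0571, the smallest that 4 against 3 allows).

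DESeq2 passed 16 genes, the 10 above and Capza1, She, Hax1, Rnf32, Vps16 and Abl1, which edgeR did not pass. Rnf32, a RING finger gene of chromosome 5, had 10.96, 11.02, 10.6 and 10.8 CPM in P195A/P195A and 6.80, 6.26 and 6.32 CPM in wild type (0.75; SE 0.145; adjusted p = 0.14, edgeR), with little spread in either group. Vps16, a subunit gene of the vacuolar tethering complexes, had 24.4, 23.1, 24.1 and 24.0 CPM in P195A/P195A and 31.9, 31.3 and 36.0 CPM in wild type (-0.47; SE 0.0987; adjusted p = 0.301, edgeR). Abl1, a tyrosine kinase gene, was lower by the fit at -0.37 (SE 0.0824), with 57.5 to 64.4 CPM in P195A/P195A and 69.7 to 82.2 CPM in wild type. Vps16, Abl1 and Prrc2b (-0.33) are on chromosome 2. The remaining genes were Gm41396 (2.46), Adcy4, an adenylyl cyclase gene (-1.23), and Gm12840 (-0.70), none of which passed by edgeR.

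Interferon-stimulated genes did not pass in either direction. Of 63 measured members of that list 20 were higher and 43 lower in P195A/P195A, with a median log2 fold change of -0.15 beside 0.01 over all genes tested. The number with an unadjusted p under 0.05 was 1 higher and 8 lower, 14.3% of the list beside 5.89% of all genes. This share is a description, as the list was chosen with earlier results of these data known. The summed level of the list was 353 to 369 CPM in P195A/P195A and 383 to 413 CPM in wild type, so the groups did not overlap. Of all genes tested 51.4% were higher, and in 3.79% all 4 P195A/P195A libraries lay below all 3 wild-type libraries, as in 3 of the 63. Dhx58, which encodes the RNA sensor LGP2, was the higher member with an unadjusted p under 0.05, at 2.16, 1.61, 1.33 and 1.47 CPM in P195A/P195A and 0.79, 0.37 and 0.59 CPM in wild type (1.49; SE 0.366; adjusted p = 0.694, edgeR). Ifit3, a gene of the IFIT family, had -0.70 and Oasl2, a 2′-5′ oligoadenylate synthetase-like gene, -0.66. Zbp1, the other protein with Z-alpha domains, and Isg15 were below 1 CPM in all 7 libraries and were not tested. Of the 22 measured genes of double-stranded RNA and Z-RNA sensing, 10 were higher and 12 lower (median -0.04), with Trim25 at -0.34 and Irf3 at -0.22. Among Aicardi-Goutieres syndrome genes, a list that holds Adar, Rnaseh2c (-0.33) and Rnaseh2b (-0.43) did not pass and 5 of 8 were higher.

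The MHC class I list had 4 of 16 members higher and a median of -0.22, with H2-D1, a class I heavy chain gene, at -0.25, Psmb9, an immunoproteasome subunit gene, at -1.15 and H2-T23 at -0.36. This median was -0.00 in animals of 48 days. Stress response genes that ATF4 controls had 10 of 33 higher (median -0.11), with Slc7a5, an amino acid transporter gene, at -0.20 and Mthfd2, a folate enzyme gene, at -0.34. The list of kinases and phosphatase subunits acting on eIF2 alpha also holds Eif2b3, a subunit gene of the exchange factor eIF2B. This list had 5 of 12 higher (median -0.02, and -0.07 to 0.04 on leaving out 1 library). Eif2ak3 was at 0.15, Eif2ak1 at -0.09 and Eif2b3 at -0.14. Immediate early genes had 6 of 21 higher (median -0.08, but 0.04 without P195A/P195A replicate 2 and 0.03 without wild-type replicate 2; Npas4 -0.29, Fosl2 -0.11, Nr4a1 -0.10). In none of these lists did a member pass.

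All 16 glucocorticoid targets were lower in the fit, with a median of -0.23, but 0 passed by edgeR. An unadjusted p under 0.05 was found in 4, 25% of the list beside 5.89% of all genes. The list was chosen with earlier results of these data known, so this share is a description. In 1 of the 16 all 4 P195A/P195A libraries lay below all 3 wild-type libraries, as in 3.79% of all genes. Pdk4, a kinase that restrains pyruvate dehydrogenase, had 10.9, 15.8, 12.2 and 12.4 CPM in P195A/P195A and 20.1, 19.3 and 21.6 CPM in wild type (-0.67; SE 0.237). Sgk1, a serum- and glucocorticoid-induced kinase gene, had 88.4, 89.6, 148.8 and 139.3 CPM in P195A/P195A and 177.5, 178.1 and 146.2 CPM in wild type (-0.52; SE 0.176), where replicate 3 of P195A/P195A overlapped with wild type. Ddit4, an inhibitor of mTORC1, had -0.43. Replicates 3 and 4 are the P195A/P195A animals of 48 days, and among animals of 48 days the list median was -0.10.

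No marker of a cell type or brain region passed, and the part of their differences in these lists was not tested. Astrocyte markers had 14 of 16 lower (median -0.16), with Glul, glutamine synthetase, at -0.28, Slc1a2, the main glial glutamate transporter, at -0.19 and S100b at -0.23, and their summed level was 9368 to 10786 CPM in P195A/P195A and 10835 to 11818 CPM in wild type. Markers of meninges and fibroblasts had 13 of 14 lower (median -0.21; Dcn -0.42, Slc6a13 -0.46, Igf2 -0.40). Myelin markers had 10 of 15 lower (median -0.06, but 0.04 without wild-type replicate 2; Trf -0.32, Ermn -0.19, Mobp -0.17). Microglia markers had 8 of 17 higher (median -0.00, and -0.15 to 0.12 on leaving out 1 library; Sall1 0.29, Tyrobp 0.44, Itgam 0.27), with summed levels of 273 to 469 CPM in P195A/P195A and 342 to 360 CPM in wild type.

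Among markers of neuroblasts and proliferating cells 16 of 20 were higher, with a median of 0.19. Dcx, a microtubule protein of migrating neuroblasts, had 105.5, 102.8, 78.1 and 100.1 CPM in P195A/P195A and 76.0, 73.1 and 60.3 CPM in wild type (0.47; SE 0.116; adjusted p = 0.694, edgeR). The groups did not overlap, and the lowest value belonged to the wild-type animal of 74 days. Dlx6 (1.45) and Dlx1 (0.53), homeobox genes of the interneuron lineage, did not pass. Olfactory bulb markers had 12 of 16 higher (median 0.25, and 0.41 without P195A/P195A replicate 1), while their summed level, led by Reln and Kctd12, which were lower, was 829 to 892 CPM in P195A/P195A and 865 to 938 CPM in wild type. Sp8, a transcription factor of olfactory bulb interneurons, had 10.1, 8.76, 8.89 and 10.7 CPM in P195A/P195A and 5.39, 5.21 and 4.201 CPM in wild type (0.96; SE 0.254; adjusted p = 0.734, edgeR), Tbx21 had 1.99 and Doc2g 0.75. Age and genotype were partly confounded, since animals of 42 days were all P195A/P195A and the animal of 74 days was wild type. Among animals of 48 days alone, Dcx had 0.25 and Sp8 0.88.

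Editing was higher on average in P195A/P195A brains. Over the 11551 sites tested, the mean level was 17.1%, 16.7%, 16.96% and 16.8% in P195A/P195A and 15.5%, 14.98% and 16.4% in wild type. The groups did not overlap, and the difference was 1.27 percentage points (16.9% ± 0.198 in P195A/P195A and 15.6% ± 0.695 in wild type; SD, n = 4 and 3; exact two-sided permutation p = 0.0571, the smallest of the 35 splits). The direction held in all 16 alternatives, at 0.919 to 1.72 points. Median depth was 18 to 31 reads per site in P195A/P195A and 23 to 26 in wild type. Reads of C or T at the same positions, a measure of error, made up 0.0103 to 0.0186% in P195A/P195A and 0.0153 to 0.01998% in wild type (exact permutation p = 0.629).

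By location, sparse 3′ UTR sites, those with fewer than 2 other tested sites within 100 bases, had the largest difference of the 8 locations. Over 382 such sites the mean was 14.2%, 12.3%, 14.5% and 14% in P195A/P195A and 11.7%, 10.7% and 11.7% in wild type, a difference of 2.38 points (exact permutation p = 0.0571, adjusted p = 0.152 over the 8 locations). Isolated intron sites, 2613 in number, differed by 1.71 points (14.4% ± 0.375 in P195A/P195A and 12.7% ± 0.919 in wild type; SD, n = 4 and 3), again without overlap. Intergenic sites, 731 in number, differed by 1.60 points (22.2% ± 0.200 in P195A/P195A and 20.6% ± 0.505 in wild type; SD, n = 4 and 3), without overlap.

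Clustered sites, those with at least 2 other tested sites within 100 bases, differed less in points. The structure of the RNA was not measured. Clustered 3′ UTR sites had 15.9% ± 0.495 in P195A/P195A and 14.7% ± 0.497 in wild type over 1587 sites, and clustered intron sites 17.7% ± 0.298 in P195A/P195A and 16.8% ± 0.686 in wild type over 5260 sites (SD, n = 4 and 3). In both, 1 wild-type library, replicate 3, overlapped with P195A/P195A. Noncoding exon sites differed by 1.42 points and coding sites by 0.897 points, with overlap. The 15 sites in 5′ UTRs had a mean difference of 0.727 points but a median log2 odds ratio of -0.26, and 5 of them were higher. Whether locations differed from each other in the size of the difference was not tested.

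**Figure D3:**
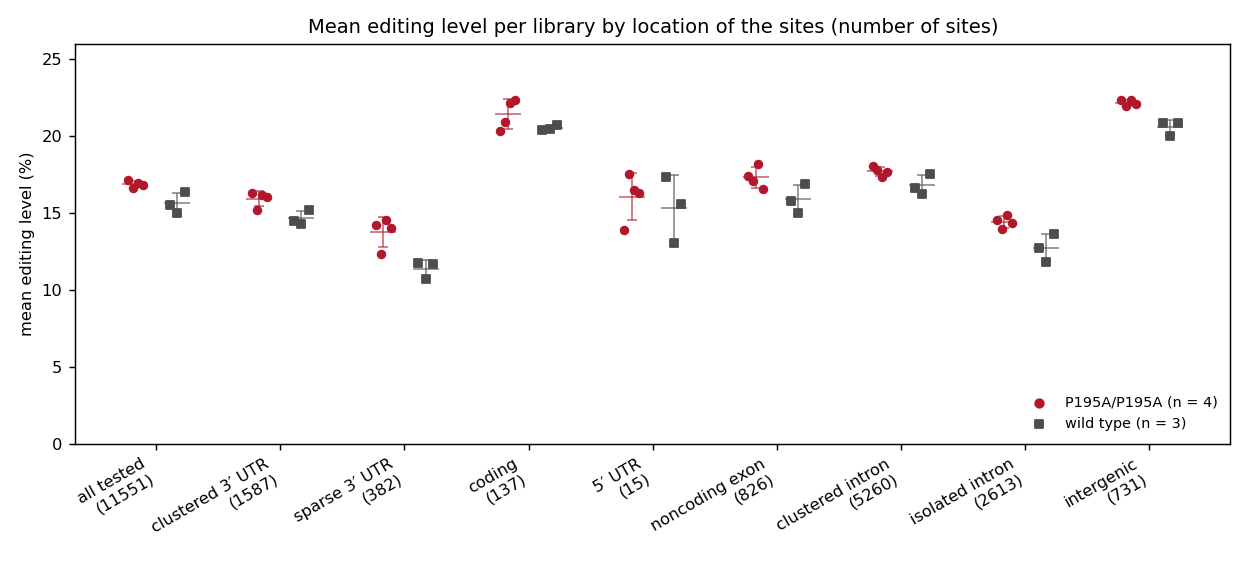
Mean editing level per library in percent, over all tested sites and by location, with P195A/P195A in red left of wild type in grey, lines and bars being the mean and SD. Over all tested sites the P195A/P195A libraries lie between 16.7% and 17.1%, above the wild-type libraries at 14.98 to 16.4%.

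Sites of high and low level shared the direction of the mean. In sites with a pooled level of 20 to 50% the mean was 31.7% ± 0.421 in P195A/P195A and 29.2% ± 1.26 in wild type, without overlap. In sites of 1 to 5% it was 3.06% ± 0.0601 in P195A/P195A and 2.84% ± 0.177 in wild type (SD, n = 4 and 3). There the groups overlapped, with wild-type replicate 3 at 3.03% and P195A/P195A replicate 2 at 2.97%. All 4 P195A/P195A libraries lay above all 3 wild-type libraries at 2.47% of these sites and below them at 2.58%. In the sites of 20 to 50% these shares were 8.04% and 2.63%. ADAR enzymes disfavour a G before the edited A. Among 2936 exonic sites, those with a T before the edited A had the highest mean level, 20.3% ± 0.805 in P195A/P195A and 18.3% ± 0.691 in wild type over 1020 sites, with no overlap. Sites with a G before it had the lowest, 7.98% ± 0.472 in P195A/P195A and 7.50% ± 0.486 in wild type over 213 sites, with overlap. A was the base before in 930 sites, at 15.5% ± 0.602 in P195A/P195A and 14.1% ± 0.580 in wild type. The most frequent word of 15 letters around an exonic edited A, ctgtAgaccaggctg on the transcript strand, was found at 16 sites in 15 genes (0.545% of exonic sites), 13 of them in 3′ UTRs. At these 16 sites the mean was 27.4%, 22.2%, 26.6% and 24.9% in P195A/P195A and 24.4%, 23.3% and 24.0% in wild type, and 10 were higher. Levels differed between sites that share the word, with 95.8% in P195A/P195A replicate 1 and 52.4% in wild-type replicate 1 at St7l, and 3.33% and 2.33% in the same libraries at Fitm2.

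At single sites, 24 of 11551 passed and all 24 were higher in P195A/P195A, 0.208% of the sites tested, while 0.0% passed as lower (edgeR quasi-likelihood test on edited and unedited reads, Benjamini-Hochberg adjusted). At an unadjusted p under 0.05 there were 684 higher and 239 lower sites, 5.92% and 2.07%. All 4 P195A/P195A libraries lay above all 3 wild-type libraries at 641 sites (5.55%) and below them at 315 (2.73%). Limma on log2 odds passed 0 of the 11551, with 651 higher and 279 lower at an unadjusted p under 0.05. Of the 24 sites, 15 were in 3′ UTRs, 9 of them clustered and 6 sparse, where 1587 clustered and 382 sparse sites were tested. Of 5260 clustered intron sites 3 passed and of 2613 isolated intron sites 0 passed, at a median depth of 23 and 20 reads beside 39 in both kinds of 3′ UTR site. The count fell to 7 without wild-type replicate 1, 8 without wild-type replicate 2, 10 when replicate 3 of either genotype was left out, 12 without P195A/P195A replicate 1 and 14 without P195A/P195A replicate 4. The passing sites of Fnbp1, Slc24a2 and Grik2 had wild-type means of 0%, 0.285% and 0.878%. They reached the minimum pooled level of 1% only through the P195A/P195A reads.

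Cds2, a gene of phosphoinositide synthesis, had 2 passing sites in its 3′ UTR. At 132309633, whose sequence is given above, 12.3%, 9.04%, 11.8% and 11.9% of reads were edited in P195A/P195A and 5.63%, 3.48% and 5.94% in wild type, from 498 to 644 reads per P195A/P195A library and 551 to 774 per wild-type library (log2 odds ratio 1.27; SE 0.22; adjusted p = 4.42e-05, edgeR). At 132309880 the level was near its ceiling, at 90.3%, 89.4%, 90.9% and 91.5% in P195A/P195A and 85.3%, 83.6% and 81.5% in wild type (0.92; SE 0.203; adjusted p = 0.00721, edgeR). Neither site showed overlap, and 7 of the 8 tested sites of Cds2 were higher in P195A/P195A.

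Kif3c, a kinesin motor gene of neurons, had 15.7%, 13.8%, 20.3% and 24.2% in P195A/P195A and 7.10%, 6.02% and 6.94% in wild type at 3404616 (1.68; SE 0.325; adjusted p = 0.00069, edgeR). Its site at 3404167 had 25.2%, 25.9%, 16.8% and 21.97% in P195A/P195A and 8.70%, 6.87% and 11.6% in wild type. Gnl3l, a nucleolar GTPase gene, had 73.4%, 65.8%, 74.4% and 70.7% in P195A/P195A and 52.1%, 55.3% and 58.4% in wild type (1.00; SE 0.195; adjusted p = 0.00069, edgeR). The groups lay apart at all 3 of these sites. Of the 18 tested sites of Gnl3l, 9 were higher and 9 lower.

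Tbc1d24, a gene of synaptic vesicle traffic whose window resembles that of Gnl3l, had 52.4%, 51.1%, 62.7% and 55.9% in P195A/P195A and 23.6%, 32.5% and 20.0% in wild type. Arf3, a Golgi GTPase gene, had 79.4%, 73.3%, 89.5% and 86.3% in P195A/P195A and 57.4%, 55.1% and 50.9% in wild type. Ap2a2, a clathrin adaptor gene, had 20.1%, 15.6%, 18.5% and 14.1% in P195A/P195A and 5.37%, 6.88% and 9.20% in wild type. No overlap was seen at any of these sites either. Selenop, a selenium carrier gene, had low levels with overlap, at 2.88%, 1.47%, 3.50% and 2.85% in P195A/P195A and 1.56%, 1.14% and 0.857% in wild type, from 730 to 1170 reads per P195A/P195A library (1.22; SE 0.248; adjusted p = 0.0044, edgeR).

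Both coding sites that passed were silent. In Chtf8, a sister chromatid cohesion gene, the L234L site (chromosome 8, 106885604) had 13.4%, 6.82%, 13.8% and 15.4% in P195A/P195A and 1.75%, 0% and 5.88% in wild type (2.21; SE 0.481; adjusted p = 0.00592, edgeR). In Grik2, a kainate receptor subunit gene, G615G had 6.09%, 8.60%, 1.67% and 9.82% in P195A/P195A and 0%, 1.80% and 0.833% in wild type, and P195A/P195A replicate 3 overlapped with wild type. The known recoding site of Grik2, Q621R, lies a few codons downstream and had 80.2%, 71.6%, 81.0% and 78.2% in P195A/P195A and 77.3%, 83.7% and 77.6% in wild type (log2 odds ratio -0.13; SE 0.348).

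An intron site of Gria4, an AMPA receptor subunit gene, at 4437928 on chromosome 9, had 68.6%, 35.4%, 56.8% and 35.8% in P195A/P195A and 13.9%, 17.1% and 11.1% in wild type from 27 to 53 reads per library (2.42; SE 0.539; adjusted p = 0.00831, edgeR). The intergenic site at 27528168 on chromosome 7 had 37.3%, 26.7%, 33.3% and 25.2% in P195A/P195A and 8.45%, 17.4% and 10.8% in wild type. At 2 further sites among the 10 with the smallest p, reads come from a locus of chromosome 17 that GENCODE annotates with the noncoding RNA Gm26917 and a ribosomal RNA gene, and depth in the deposited table is capped at 3000. There the Gm26917 site (39845506) had 6.47%, 5.47%, 6.30% and 6.13% in P195A/P195A and 4.63%, 2.94% and 2.97% in wild type, and the intergenic site (39844592) had 28.8%, 29.8%, 23.2% and 23.9% in P195A/P195A and 23.1%, 9.36% and 11.4% in wild type. Without this locus 22 sites passed.

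**Figure D4:**
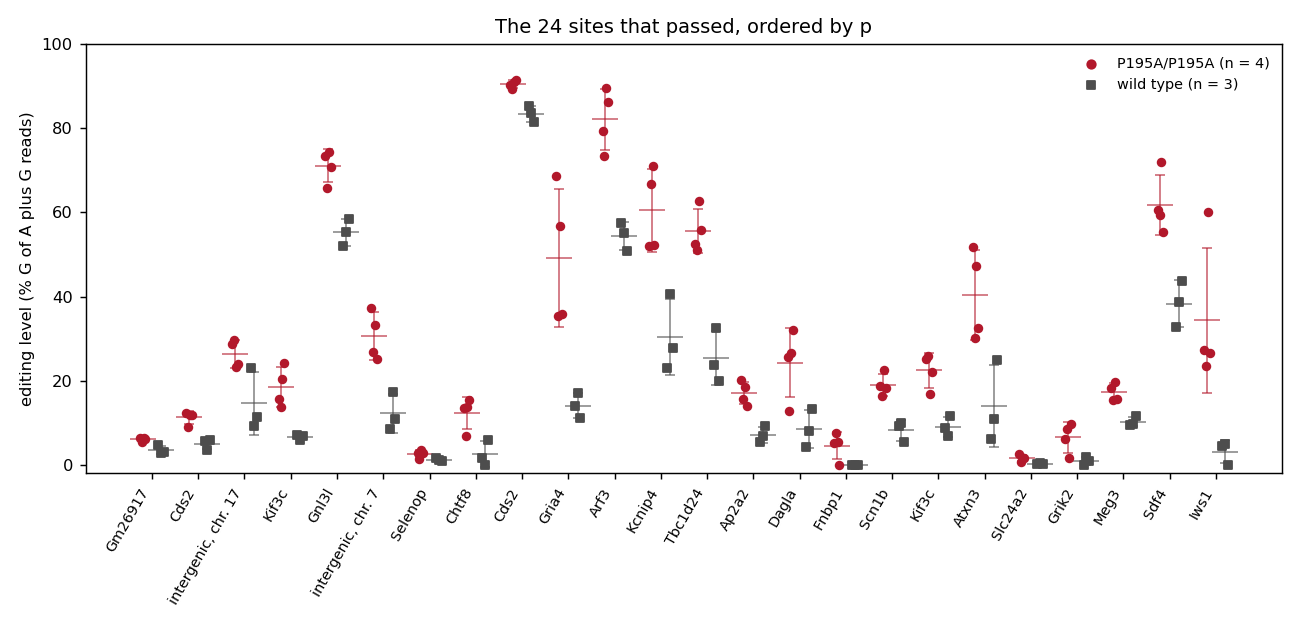
Editing level in percent, per library, at the 24 sites that passed, ordered by p from left to right, with P195A/P195A in red left of wild type in grey, lines and bars being the mean and SD. At 20 sites all 4 P195A/P195A libraries lie above all 3 wild-type libraries, and at Selenop, Dagla, Fnbp1 and Grik2 they overlap.

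Summed over the sites of a gene, 5 of 868 genes with at least 3 tested sites passed, 0.576%, all higher in P195A/P195A, and 0.0% passed as lower. Limma on log2 odds passed 0, with 69 higher and 14 lower at an unadjusted p under 0.05. Without wild-type replicate 1, 2 or 3 the count was 1, 2 and 8, and without P195A/P195A replicate 1 it was 3. The 4 P195A/P195A libraries lay above the 3 wild-type libraries in 75 genes (8.64%) and below them in 16 (1.84%). Meg3, an imprinted noncoding RNA gene, had 21.2%, 16.1%, 20.4% and 17.9% in P195A/P195A and 10.6%, 11.7% and 13.99% in wild type over 5 sites (log2 odds ratio 0.76; SE 0.136; adjusted p = 0.000909, edgeR). Dusp11, a phosphatase gene that acts on RNA 5′ triphosphates, had 20.0%, 25.6%, 24.1% and 19.6% in P195A/P195A and 15.3%, 13.1% and 14.7% in wild type over 15 sites (0.77; SE 0.154). The groups did not overlap in either gene.

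March2, a membrane ubiquitin ligase gene, had 19.2%, 18.7%, 17.1% and 14.9% in P195A/P195A and 11.4%, 10.7% and 12.5% in wild type over 34 sites (0.70; SE 0.155). Pum2, an RNA-binding translational repressor gene, had 11.5%, 9.96%, 7.89% and 9.49% in P195A/P195A and 2.73%, 4.196% and 5.32% in wild type over 7 sites (1.30; SE 0.325; adjusted p = 0.0469, edgeR). Gm26917 of the chromosome 17 locus was the other gene, at 3.29 to 3.78% in P195A/P195A and 1.51 to 2.20% in wild type. Among genes that did not pass, Ovca2 (0.57), Rbm25 (1.04), Map7 (0.72), Gnl3l (0.31) and Pcdh9 (0.34) had the smallest p. Pcdh9, a protocadherin gene, had 14.7%, 14.4%, 14.6% and 13.97% in P195A/P195A and 12.2%, 11.7% and 11.4% in wild type.

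At amino-acid-changing sites most levels were close between the genotypes. Of 55 tested sites in 27 genes with known recoding, 26 were higher and 29 lower in P195A/P195A, with a median log2 odds ratio of -0.04 beside 0.16 over all sites, and 0 passed by edgeR (5 at an unadjusted p under 0.05, all higher, where 5.92% of all sites were higher at that p). The groups did not overlap at 6 sites that were higher, 10.9% beside 5.55% of all sites, and at 1 that was lower, 1.82% beside 2.73%. Among the higher sites, Flna S2339G and Unc80 S2742G had wild-type means of 0% and 0.837%. They reached the minimum pooled level of 1% only through the P195A/P195A reads, so their lack of overlap is a description. The sequences that follow, with the edited A in capitals, are of 3 of the 6 higher sites, of the Htr2c neighbour I157V, of the 1 lower site in Cyfip2, and of Gria2 R764G as a site at which the groups overlapped.
Blcap Q5R, chromosome 2, 157558140, - strand: tattgcctccAgtggctgctg
Htr2c I157V, chromosome X, 147169686, + strand: gtatgtagcaAtacgtaatcc
Htr2c I157M, chromosome X, 147169688, + strand: atgtagcaatAcgtaatccta
Ube2o S93G, chromosome 11, 116581137, - strand: cggccgcggcAgctcgggctg
Cyfip2 K320E, chromosome 11, 46272643, - strand: cagatacattAagaccagtgc
Gria2 R764G, chromosome 3, 80692286, - strand: atcctcattaAgaaatgcggt

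Ube2o, a ubiquitin-conjugating enzyme gene, had 97.1%, 79.3%, 85.7% and 89.7% at S93G in P195A/P195A and 63.8%, 71.1% and 73.2% in wild type, from 29 to 56 reads per library (log2 odds ratio 1.68; SE 0.527; adjusted p = 0.239, edgeR). Blcap, whose start of coding sequence is edited at several bases, had 38.7%, 34.5%, 34.8% and 39.3% at Q5R in P195A/P195A and 9.38%, 25.0% and 18.2% in wild type (1.41; SE 0.539; adjusted p = 0.459, edgeR). Its Y2C site had 42.9%, 37.5%, 42.9% and 47.6% in P195A/P195A and 22.7%, 33.3% and 20.0% in wild type, and K15R had 16.1 to 26.5% in P195A/P195A and 12.8 to 22.5% in wild type. The first 2 did not overlap between the groups and K15R did.

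In Htr2c, the serotonin 2C receptor gene, 5 adjacent sites change the intracellular loop that couples to the G protein. I157M had 70.7%, 70.2%, 85.9% and 70.4% in P195A/P195A and 63.2%, 58.5% and 55.9% in wild type (1.04; SE 0.414; adjusted p = 0.479, edgeR), without overlap. I157V had 92.3%, 74.5%, 89.2% and 86.8% in P195A/P195A and 74.6%, 80.0% and 67.7% in wild type (1.06; SE 0.463), where replicate 2 of P195A/P195A overlapped. The next sites of the same loop overlapped: N159S had 21.7 to 28.6% in P195A/P195A and 18.7 to 26.9% in wild type, I161V 52.5 to 67.3% in P195A/P195A and 59.7 to 68.6% in wild type, and N159D at most 5.48% in any library.

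At the sites of Gria2 the groups overlapped. Q607R, which makes AMPA receptors impermeable to calcium, was too close to complete for the test, at 99.6%, 97.2%, 99.04% and 99.6% in P195A/P195A and 100%, 98.7% and 99.6% in wild type, or 1011 of 1022 reads in P195A/P195A and 725 of 729 in wild type. R764G had 71.9%, 75.4%, 70.2% and 70.4% in P195A/P195A and 66.4%, 70.6% and 73.1% in wild type (0.13; SE 0.236). Cyfip2 K320E, in a regulator of actin assembly, was the site that was lower without overlap, at 77.7%, 77.1%, 76.5% and 77.7% in P195A/P195A and 79.6%, 84.3% and 79.2% in wild type (-0.34; SE 0.223; adjusted p = 0.739, edgeR).

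At the sites from Kcna1 to Tmem63b given next, most of them in ion channel and receptor genes, the groups overlapped. Kcna1 I400V, in a voltage-gated potassium channel, had 37.5%, 39.1%, 34.0% and 39.1% in P195A/P195A and 40.3%, 34.7% and 45.8% in wild type. Gabra3 I383M, in a GABA-A receptor subunit, had 94.1 to 96.4% in P195A/P195A and 92.96 to 96.99% in wild type, and Gria3 R769G 91.4 to 96.0% in P195A/P195A and 91.2 to 94.3% in wild type. Unc80 S2732G had 51.2 to 58.1% in P195A/P195A and 50.5 to 62.6% in wild type, Cadps E1258G 18.4 to 23.1% in P195A/P195A and 16.2 to 19.6% in wild type, and Tmem63b Q619R 67.9 to 69.6% in P195A/P195A and 63.0 to 68.6% in wild type. Unc80 S2742G, higher without overlap, was at 1.14 to 2.37% in P195A/P195A and 0.37 to 1.09% in wild type. The Flna S2339G site was at 3.23 to 15.4% in P195A/P195A and 0% in wild type at 18 to 36 reads (adjusted p = 0.308, edgeR). Neil1 K242R, in a DNA glycosylase, did not reach 10 reads in each library and was not tested, with 1 of 6, 3 of 13, 4 of 14 and 2 of 9 reads edited in P195A/P195A and 1 of 10, 0 of 8 and 0 of 17 in wild type.

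**Figure D5:**
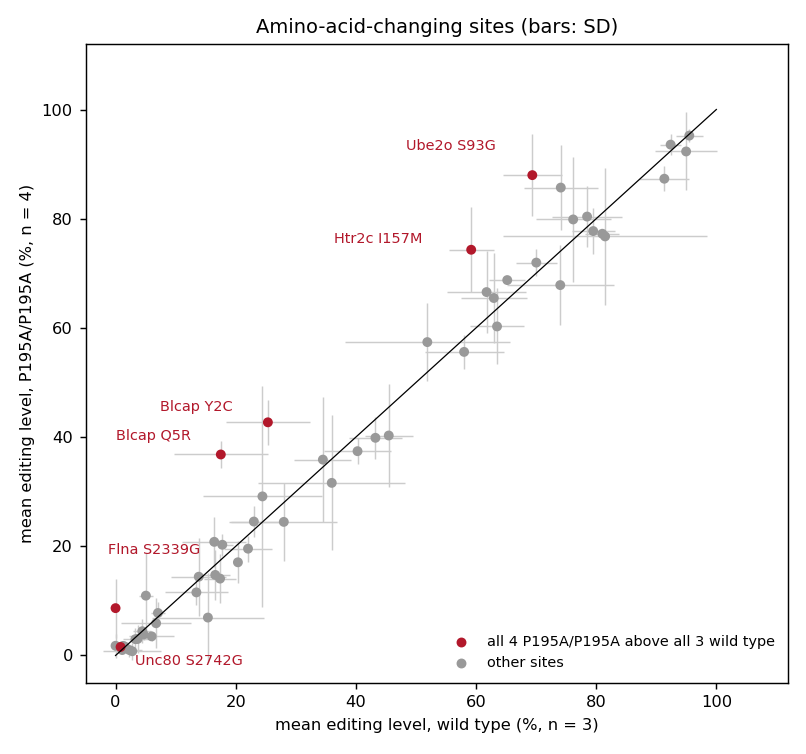
Mean editing level in percent at 55 amino-acid-changing sites, with P195A/P195A (n = 4) on the vertical and wild type (n = 3) on the horizontal axis, bars being the SD and the line equal levels. Red points mark the 6 sites at which all P195A/P195A libraries lie above all wild-type libraries, and most other sites lie near the line.

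The transcripts of the editing enzymes are themselves edited, and the groups overlapped in both. Over 10 sites of Adar, with clustered intron as their main location, the level was 17.5%, 13.98%, 16.5% and 15.2% in P195A/P195A and 13.9%, 15.6% and 17.6% in wild type. Over 19 sites of Adarb1 it was 24.8%, 27.1%, 28.5% and 27.1% in P195A/P195A and 26.1%, 28.7% and 27.0% in wild type, with a log2 odds ratio of -0.03 (SE 0.145).

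None of the genes with a passing site passed in expression. Of the 20 genes with a passing site 18 were measured, and 0 passed by edgeR. In P195A/P195A 10 were higher and 8 lower, from -0.22 to 0.32 on the log2 scale with a median of 0.02. An unadjusted p under 0.05 was found in 5 of the 18, beside 5.89% of all genes. These were Sdf4 (-0.22), Arf3 (-0.22), Cds2 (-0.19), Grik2 (0.24) and Iws1 (0.32). Meg3, Dusp11, March2 and Pum2 had expression differences of 0.25, 0.24, -0.24 and -0.04. Over the 861 genes with both measures the median log2 fold change of expression was 0.01, as it was over all genes. The 4 of them that rose in expression, Adar, Ubap2l, 4632404H12Rik and 4933434E20Rik, all near Adar, had editing log2 odds ratios of 0.01, -0.25, -0.36 and 0.23, none of which passed.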

How the data were processed

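RNA of whole brain was analysed for 4 P195A/P195A and 3 wild-type mice. The deposited gene table holds estimated counts, made with fastp 0.19.5 and Salmon per the submitters' processing notes, which also name edgeR; 99.48% of its values above 0 were not whole, and they were rounded. Of 54307 entries 51482 matched GENCODE M21 (GRCm38), and the unmatched held 0.678% of counts. The deposited editing table lists read numbers of A, C, G and T per library at 48021 known sites, with a JACUSA2 difference score per site that was not used in a test. Per the file headers it was made with JACUSA2 2.0.0-RC5 on mm10 with stranded reads, a minimum coverage of 3 and a depth capped at 3000. No source used here names the aligner. Deep sites are therefore less precise than their expression would allow, and the cap bears on the chromosome 17 locus.

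Expression was tested with edgeR 4.0.16 (quasi-likelihood, TMM scaling, its filter on low counts, R 4.3.3), with all 13 libraries sharing the spread. Sites with a reference A, at least 10 reads of A or G in each of the 7 libraries and a pooled level of 1 to 99% were tested with edgeR on edited and unedited reads; 11551 remained. The pooled level took the reads of both groups, so a site could be kept through 1 group alone. A site was clustered when at least 2 other tested sites lay within 100 bases. Genes with at least 3 sites were tested on their summed reads. Mean levels were compared with exact permutation tests over the 35 splits, two-sided with the smaller tail doubled, and intervals cover counting error only. The edgeR tests of expression and of single sites were run on simulated data with a single fixed spread and independent libraries. Those simulations do not cover libraries that stand apart, as P195A/P195A replicates 2 and 3 did. Alternatives were DESeq2 1.42.0, limma 3.58.1, other filters and scaling, sex, age and left-out libraries. Members and gene lists were chosen with earlier results of these data known, so counts and shares within lists are descriptions. Named genes were those that passed, the ADAR genes, the 10 of at least 1 CPM with the smallest p that did not pass, the 3 list members with the smallest p and the listed neighbours of Adar; named sites and edited genes were the 10 with the smallest p, and in each recoding gene the amino-acid-changing site with the most reads. Further sites and the 15-letter word were chosen after their values were seen.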

Additional observations from a re-analysis of the deposited data

Results flagged for a closer look

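In 131 groups of 4 P195A/P195A libraries examined, 1 library stood far from the other 3 in 5 groups, and chance alone gives about 1 in 20. Oasl2 was at 2.24 CPM in replicate 4, against 1.57 to 1.68 CPM in the other P195A/P195A libraries. Dlx6 was at 4.95 CPM in replicate 4, against 1.72 to 2.19 CPM in the others. Mobp, a myelin gene, was at 605.8 CPM in replicate 2, against 670.3 to 677.6 CPM in the others. The Cds2 site at 132309633 was edited at 9.04% in replicate 2, against 11.8 to 12.3% in the others, and all 4 values lay above wild type. The Nova1 site at 46700442 was at 3.125% in replicate 4, which is 1 edited read of 32, and at 0% in the others.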

How the results depend on the processing

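Adar passed in all 17 alternatives (log2 fold change 0.79 to 0.93), and the mean editing difference was above 0 in all 16. Against 10 genes, DESeq2 passed 16, the 7 libraries alone 5, animals of 48 days 5, females 8 (without Gm3608 and Il6ra) and leave-one-out fits 5 to 13. Against 24 sites, a coverage of 20 passed 43, a coverage of 5 passed 10, females 13, animals of 48 days 6, limma 0, omission of P195A/P195A replicates 2 and 3 together 11 and leave-one-out fits 7 to 21. Against 5 edited genes, a coverage of 20 passed 8, females 9, limma 0, omission of the chromosome 17 locus 3, omission of P195A/P195A replicates 2 and 3 together 8 and leave-one-out fits 1 to 8; the last omission and that of the locus were chosen after seeing the data. The labels name no pairing of same-numbered samples, whose deviations from the group means correlated at 0.053, -0.074 and 0.022. Whether samples shared a batch or litter was not tested. With the replicate number as a block 2 genes (Adar and Atp8b2) and 10 sites passed. The cause of these changes was not tested.

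The sign turned for 5′ UTR sites in females (-0.082 points), with reads pooled (-0.22) and without P195A/P195A replicates 2 and 3 (-0.16). It turned for Adarb1 expression in the 7 libraries (0.00345), females (0.012), without those replicates (0.084) and on leaving out 1 library (-0.042 to 0.035). In females and at 48 days it turned for Jtb (0.080 and 0.10; block 0.030), Slc39a1 (0.061 and 0.091), Pmvk (0.035 and 0.094) and Flad1 (0.0057 and 0.030), and at 48 days for Eif2ak1 (0.020). On leaving out 1 library the range crossed 0 for the medians of the immediate early (-0.18 to 0.037), myelin (-0.093 to 0.043), eIF2 alpha (-0.068 to 0.038) and microglia (-0.15 to 0.12) lists. Other list medians that crossed 0 were those of cytosolic ribosomal proteins (-0.19 to 0.049), endothelial cells and pericytes (-0.13 to 0.095) and excitatory neurons (-0.097 to 0.042). So did those of ependymal cells (-0.16 to 0.091), oligodendrocyte precursors (-0.018 to 0.049), pituitary (-1.7 to 4.9) and sex-linked controls (-3.8 to 3.8). The range also crossed 0 for Jtb (-0.10 to 0.054), Slc39a1 (-0.15 to 0.024), Pmvk (-0.23 to 0.027), Nr4a1 (-0.16 to 0.027) and Itgam (-0.022 to 0.54). Among recoding sites it did so for Azin1 (-0.078 to 1.33), Cdk13 (-0.98 to 0.54), Cog3 (-0.54 to 0.070), Copa (-0.39 to 0.27), Cyfip2 K320R (-0.25 to 0.43), Dact3 (-0.58 to 0.13), Flna Q2341R (-0.15 to 0.69), Gabra3 (-0.60 to 0.081), Gria4 (-0.035 to 0.37) and Grm4 (-0.29 to 0.0044). Median site depth of 18 to 31 reads limits single sites.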

Other observations

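Other marker lists held 0 genes that passed by edgeR. Cerebellar markers had 15 of 16 members lower in P195A/P195A, with a median log2 fold change of -0.16 that was also -0.16 among animals of 48 days, and summed levels of 1324 to 1483 CPM in P195A/P195A and 1487 to 1643 CPM in wild type; none had an unadjusted p under 0.05. Striatal markers had 12 of 15 lower (median -0.16; 0.01 at 48 days). Cholesterol synthesis genes had 20 of 21 lower, with a median of -0.09. Of them 1 had an unadjusted p under 0.05, 4.76% of the list beside 5.89% of all genes. Blood cell markers varied within both groups, with summed levels of 299 to 632 CPM in P195A/P195A and 373 to 1267 CPM in wild type.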
